A study of Homo sapiens with 8 samples.

Results

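The cytosolic ribosomal proteins are the protein part of the ribosomes that translate nuclear-encoded mRNAs. Their genes were taken by symbol, as RPL (large subunit) or RPS (small subunit) and a number with an optional A, X or L, together with RPLP0, RPLP1, RPLP2 and RPSA, without pseudogenes and without the RPS6K kinases. Of 19775 genes that the arrays read with a probe set of their own, 57 matched, on 118 of 54675 probe sets. A gene was taken as expressed when a probe set reached a log2 signal of 6 on at least 1 array. This kept 52 of the 57, 31 of the large and 21 of the small subunit, among 8429 expressed genes.

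Gene expression was measured in HT1080, an established human fibrosarcoma cell line, on Affymetrix U133 Plus 2.0 arrays, where a probe set is a group of short oligonucleotides that read 1 transcript. There were 8 arrays, 1 for each condition, all of cells treated for 18 h. The conditions were no compound (control), 10 µM compound C (CC), 10 µM versipelostatin (VST), 100 µM phenformin (Phen), 10 mM 2-deoxyglucose (2DG), and 2DG with each of the 3 compounds at those doses. 2DG is a glucose analogue that blocks glycolysis and protein glycosylation. Phenformin inhibits respiration in mitochondria, versipelostatin comes from a microbe and is macrocyclic, and compound C is best known as an inhibitor of AMPK and other kinases. The comparisons ask what 2DG and each compound alone do against control, and what each compound does to cells in 2DG. With 1 array a condition there is no replicate, so no difference below carries an error or a test, and the number of arrays limits the precision of all of them. Values are log2 signals as normalized by RMA, and a difference is the log2 signal on the treated array minus that on its reference, so that 1 is 2-fold.

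A human ribosome holds 1 copy of nearly every ribosomal protein, and cells make the proteins in matched amounts. Most of their mRNAs begin with a terminal oligopyrimidine (TOP) tract, a C at the first base followed by a run of C and T. Through this tract the kinase mTORC1 and the binding protein LARP1 control how strongly the mRNAs are translated and stored, so the output of these genes is regulated to a large extent after transcription. An array reads mRNA and not its translation, and because the arrays were normalized to each other, a change in RNA per cell and a change in the number of cells cannot be told apart.

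The start sites carry this tract in the reference sequence. Windows of 30 bases, 15 before and 15 from the annotated start, were read from RefSeq promoters of the build GRCh38.p14. A TOP start was counted where the first base was C and the first 5 bases were all C or T, on the strand of the gene. Of the 52 expressed genes, 46 were matched in the table, and 32 of them (69.6%) had a TOP start, against 1404 of 27305 genes (5.1%) in the whole table. With a start up to 5 bases away also allowed, the numbers were 39 of 46 (84.8%) and 25.2%. The windows of 6 ribosomal protein genes with a TOP start and of 1 paralog, RPL22L1, which has one too, are shown first, and then those of 2 ribosomal protein genes and of 1 further paralog (RPL7L1) without it. They were chosen because the results name these genes. RPS6 is named as a well-known member, RPL41 for a narrow span and as the brightest, and RPS24 for probe sets that differed. The others are named as among the farthest from 0 in a comparison, as a paralog or as the partner of one. Capitals mark the run of C and T that begins at the annotated start.
RPS6 (chr9:19380222-19380251, minus strand): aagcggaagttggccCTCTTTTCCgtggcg
RPL12 (chr9:127451392-127451421, minus strand): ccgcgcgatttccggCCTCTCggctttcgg
RPS25 (chr11:119018329-119018358, minus strand): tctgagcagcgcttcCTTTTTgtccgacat
RPL41 (chr12:56116618-56116647, plus strand): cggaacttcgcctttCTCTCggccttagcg
RPS24 (chr10:78033848-78033877, plus strand): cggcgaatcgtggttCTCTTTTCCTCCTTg
RPL22 (chr1:6199581-6199610, minus strand): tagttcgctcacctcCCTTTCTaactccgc
RPL22L1 (chr3:170870181-170870210, minus strand): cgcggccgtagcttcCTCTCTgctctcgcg
RPL36AL (chr14:49620612-49620641, minus strand): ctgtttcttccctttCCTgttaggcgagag
RPS27L (chr15:63157463-63157492, minus strand): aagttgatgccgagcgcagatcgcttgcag
RPL7L1 (chr6:42879601-42879630, plus strand): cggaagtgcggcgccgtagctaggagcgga
The run is 9 bases in RPS6 and 14 in RPS24, and 3 in RPL36AL. RPL36AL counts as having a TOP start only when a start up to 5 bases away is allowed. In RPS27L and RPL7L1 the first base is neither C nor T. Each window holds 15 bases upstream and the first 15 bases of the annotated transcript. The match says what the reference letters are and was not measured in these cells.

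The 57 genes lie on 19 chromosomes, with 7 on chromosome 19, 6 on chromosome 3 and 3 on X. Ribosomal protein genes that the platform reads only with probe sets carrying several symbols were not named from them. These were 15 genes, RPL5, RPL10, RPL13A, RPL4, RPL7A, RPL13, RPL17, RPL21, RPL23, RPL28, RPS2, RPS3A, RPS13, RPS20 and RPS26. RPLP0, RPSA, RPS27A and RPL26 were not analysed here. The 5 genes that did not reach the limit were RPLP2, a stalk protein (highest signal 5.20), RPL36A (3.18), and RPL10L (4.97), RPL3L (2.90) and RPL39L (2.76), which are known as copies used in testis or muscle. An array signal depends on how well a probe set binds, so a brighter or dimmer probe set does not by itself stand for more or less RNA.

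Ribosomal protein probe sets sat at the top of the scale on all 8 arrays. The mean over the arrays had a median of 13.27 among the 52 genes, and 41 of them had a mean of 13 or more, where only 59 genes of all stood, so that 69.5% of the brightest genes were ribosomal protein genes. RPL41, which encodes the shortest ribosomal protein, was the brightest, with 14.07 on the control array and 14.07 to 14.10 over the 8 arrays, and 14.10 was the highest value of all. A further 9 genes had a mean between 12 and 13, and RPL36AL (11.85) and RPL27A (6.69) were below. RPL27A was read on a dim probe set, so it stands apart from the rest in level.

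The median signal of the 52 genes differed little between arrays. It was 13.19 on the control array, 13.18 with CC, 13.25 with VST, 13.29 with Phen, 13.31 in 2DG, 13.30 in 2DG with CC, 13.34 in 2DG with VST and 13.31 in 2DG with Phen. All 8 medians lay within 0.16 of each other. The median over all expressed genes was between 7.60 and 7.69 on the 5 arrays without a combined treatment and between 7.33 and 7.35 on the 3 arrays with 2DG and a compound.

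**Figure D1:**
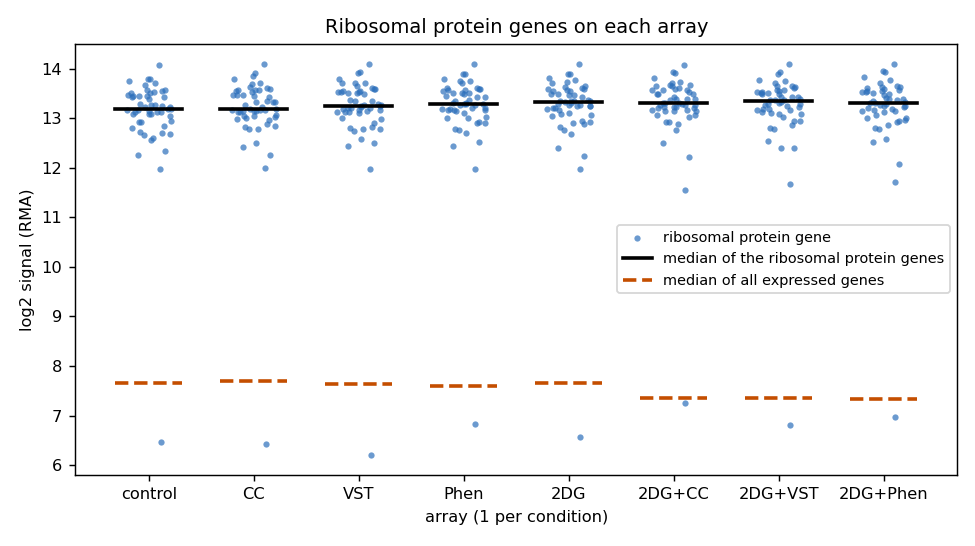
Log2 signal (y axis) of the 52 expressed ribosomal protein genes on each of the 8 arrays (x axis), 1 point a gene, with their median (black line) and the median of all 8429 expressed genes (dashed line). The points lie between 11.55 and 14.10 on every array apart from RPL27A, which lies between 6.20 and 7.25.

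Each gene also stayed close to its own level. From the lowest to the highest of the 8 arrays a ribosomal protein gene spanned a median of 0.18 (0.03 in RPL41 to 1.05 in RPL27A), while the median span over all expressed genes was 1.33. The span was below 0.25 in 37 of the 52. RPS6, the substrate of the S6 kinases, lay between 13.43 (control and CC) and 13.60 (2DG with VST), and RPLP1, an acidic protein of the stalk that engages elongation factors, between 13.50 and 13.59. RPS19, a gene in which mutations cause Diamond-Blackfan anaemia, lay between 13.57 and 13.72, RPS3, at the entry of the mRNA channel, between 13.12 and 13.27, and RPS4X between 13.45 and 13.57. These genes thus differed by less than 0.2 over all conditions. RPL11, also a well-known member, spanned more (0.41), from 12.67 on the control array to 13.07 in 2DG with CC.

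In 2DG against control, no ribosomal protein gene reached a 2-fold difference in either direction (0 of 52), where 3.06% of all expressed genes were at least 2-fold higher and 1.90% at least 2-fold lower. The median difference was 0.10 (1.07-fold), with 48 of the 52 above 0, and that of all expressed genes was 0.01. The large and the small subunit gave 0.11 and 0.09. To check the label of the 2DG array, HSPA5, the ER chaperone GRP78 that 2DG is known to induce, was read on all arrays. It had 11.19 on the control array, 10.58, 11.55 and 11.28 with CC, VST and Phen, 12.89 in 2DG, and 13.42, 12.33 and 13.41 in 2DG with CC, VST and Phen. All 4 arrays with 2DG thus lay above the 4 without it in HSPA5, and 2DG with CC and with Phen lay above 2DG alone. HYOU1 and DDIT3, read in the same check, were above control in 2DG but did not keep this order. HYOU1 had 7.53 on the control array, 7.96 with VST and 9.64 in 2DG, and 8.04, 7.86 and 8.28 in 2DG with CC, VST and Phen. DDIT3 had 6.33 on the control array, 8.42, 9.30 and 7.53 with CC, VST and Phen, and 8.83 in 2DG. In 2DG with CC, VST and Phen it had 6.77, 8.72 and 9.80. ASNS, which makes asparagine, stood above control in 2DG (2.48) and with CC, VST and Phen alone (2.50, 2.84 and 2.04), so it does not tell 2DG from the compounds. In 2DG with CC, VST and Phen its differences from 2DG alone were −1.85, −2.37 and −2.08. The sign of the small shift rests on the scale, because the poly-A controls, transcripts that the standard protocol spikes into each RNA before labelling, were 0.35 brighter in 2DG, and scaling on them turned the median to −0.25.

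RPS25, RPL12 and RPL11 stood highest in 2DG relative to control. RPS25, a small subunit protein used in initiation on some internal ribosome entry sites, had 12.60 on the control array and 12.90 in 2DG, a difference of 0.30. RPL12, at the base of the stalk, had 13.42 and 13.71 (0.28), and RPL11, which with the 5S rRNA also binds MDM2, had 12.67 and 12.93 (0.26). At the other end RPS27L, a paralog of RPS27 known as a p53 target, had 12.34 and 12.23, a difference of −0.11. RPS15 (−0.07) and RPL23A (−0.05), which lies beside the exit of the nascent chain, came next.

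Each compound alone left the group in the same narrow band. None of the 52 reached 2-fold with CC, where 3.88% of all expressed genes were at least 2-fold higher and 2.70% lower. The same held for VST (2.46% higher and 2.48% lower over all genes) and for Phen (2.66% and 2.17%). The median differences were 0.04 with CC, 0.07 with VST and 0.09 with Phen, with 38, 46 and 49 of the 52 above 0. All 4 comparisons use the same control array, so these counts share it, and scaling on the poly-A controls turned the medians with CC and Phen to −0.06 and −0.19.

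Single genes differed between the compounds by small amounts. RPS25 had 12.78 with CC, 12.77 with VST and 13.01 with Phen, so that its difference from control (12.60) was 0.18, 0.17 and 0.41. RPL12 had 13.46, 13.71 and 13.61, which put VST highest with a difference of 0.29. RPL3, a core protein near the peptidyl transferase centre, had 12.93 on the control array and 13.20 with VST (0.27). RPL34 had 12.81 on the control array and was higher by 0.18 with CC and by 0.20 with VST, RPS9 was higher by 0.20 with CC, and RPL11 by 0.23 with Phen. RPL27A, the gene on a dim probe set, gave −0.27 with VST and 0.35 with Phen. RPS12 was lower by 0.11 with CC, and the lowest values of the other genes were RPS10 with −0.06 and RPS15 with −0.03 with Phen, and RPS15 with −0.04 and RPL27 with −0.03 with VST.

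When a compound was given with 2DG, many other genes were lower than in 2DG alone, and the ribosomal protein genes stayed near their signal in 2DG on the deposited scale. With CC, 25.4% of all expressed genes were lower by 2-fold or more and 8.33% were higher, with VST 20.0% and 4.09%, and with Phen 21.8% and 4.84%, while 0 of the 52 ribosomal protein genes reached 2-fold in either direction in any of these. The median of the 52 was 0.02 with CC, 0.01 with VST and −0.01 with Phen, and that of all expressed genes −0.23, −0.18 and −0.26. Of the 52, 30, 33 and 22 were above 0. These 3 comparisons share the 2DG array.

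These medians depend on the scale of the arrays. The poly-A controls were brighter than in 2DG alone by 0.87 with CC, 0.50 with VST and 0.32 with Phen, and scaling on them turned the medians of the 52 to −0.85, −0.48 and −0.33, with 3 genes (RPL36AL, RPL12 and RPL3) then at least 2-fold lower in 2DG with CC. Centring each array on the median of the expressed genes instead gave 0.23, 0.24 and 0.28. Any positive difference smaller than those shifts turns negative under the first scaling.

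**Figure D2:**
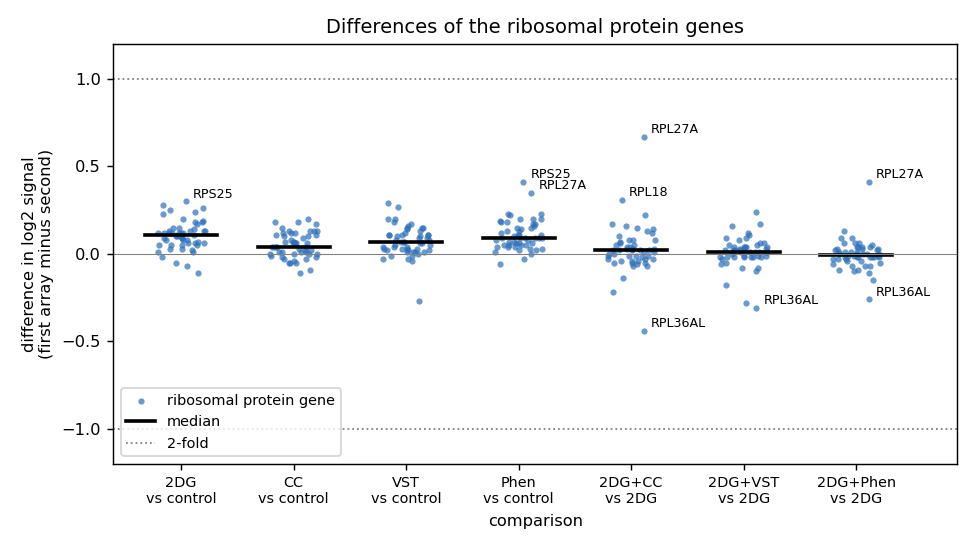
Difference in log2 signal (y axis) of the 52 ribosomal protein genes in each of the 7 comparisons (x axis), 1 point a gene, with the median (black line) and the 2-fold limits (dotted). All points lie inside the limits, and RPL27A (0.67) and RPL36AL (−0.44) in 2DG with CC lie farthest from 0.

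RPL36AL was the gene farthest below 0 in all 3 combinations. It is an intronless copy of RPL36A and encodes a large subunit protein. Its signal was 11.97 on the control array, 11.99 with CC, 11.98 with VST, 11.97 with Phen and 11.98 in 2DG, and then 11.55, 11.67 and 11.72 in 2DG with CC, VST and Phen. The 5 arrays without a combination thus lay within 0.02 of each other and the other 3 lay below them all. The differences from 2DG were −0.44, −0.31 and −0.26, and after centring each array on its median −0.23, −0.08 and 0.02, so the last turned in sign.

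Other genes differed with some of the compounds. RPL18, a Diamond-Blackfan anaemia gene, had 12.83 in 2DG and 13.15 in 2DG with CC (0.31), and RPS9 had 12.94 and 13.16 (0.22). RPL12 had 13.71 in 2DG and 13.48, 13.53 and 13.61 with CC, VST and Phen, so that it was nearest to its control level (13.42) with CC. RPL6 had 12.68 in 2DG and 12.40 with VST, a difference of −0.28. RPL27A had 6.57 in 2DG and 7.25, 6.81 and 6.98 with the compounds, the highest difference of all in each combination (0.67, 0.24 and 0.41). After scaling on the poly-A controls only that with Phen was above 0 (0.09), and the others were −0.20 and −0.26.

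RPL3 was lower by 0.14 with CC (12.93 against 13.08), and RPS3 by 0.11 with Phen. RPS27L had 12.22, 12.40 and 12.08 in 2DG with CC, VST and Phen, against 12.23 in 2DG, so it was higher with VST (0.17) and lower with Phen (−0.15). RPL36 was higher by 0.16 with VST and 0.13 with Phen, and RPL35A by 0.09 with Phen.

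Set against the compound alone in place of 2DG alone, the effect of 2DG on the group was as small. The median of the 52 was 0.08 in 2DG with CC against CC, 0.03 with VST and 0.01 with Phen, next to 0.10 for 2DG against control. RPL27A was the highest in each of these (0.82, 0.62 and 0.16). RPL36AL was the lowest under CC (−0.44) and VST (−0.30), and RPS27L under Phen (−0.44).

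Genes with a TOP start and those without one differed little in these comparisons. The medians of the 32 genes with and the 14 genes without a TOP start were 0.11 and 0.09 in 2DG, 0.06 and 0.00 with CC, 0.07 and 0.05 with VST, and 0.10 and 0.07 with Phen. In 2DG with CC they were 0.02 and 0.00, with VST 0.01 and 0.01, and with Phen 0.00 and −0.01. Of the 14 genes, RPL10A, RPL19, RPL3, RPL32, RPL36AL, RPS28 and RPS7 have a TOP start when a start up to 5 bases away is allowed. The split thus does not cleanly separate genes by the tract, and the medians cannot tell what it does. The 13 expressed genes in which mutations cause Diamond-Blackfan anaemia stayed in the same band, with medians from −0.02 to 0.10 over the 7 comparisons.

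How far probe sets differed between arrays went with how bright they were. Of the 153 expressed probe sets with a mean of 13 or more, which include 52 of ribosomal protein genes, 0% reached 2-fold in 2DG with CC, and the middle 50% of their differences spanned 0.11. Of 10514 probe sets with a mean below 8, 40.6% reached 2-fold and the middle 50% spanned 1.62. The same order held in the other 6 comparisons. The 89 other genes with a mean of 12 or more spanned more than the ribosomal protein genes, from −1.09 to 0.61 in 2DG with CC, with 2 of them at least 2-fold lower, and their medians over the 7 comparisons were −0.04 to 0.09. Those 89 are not matched to the ribosomal protein genes in level. With a mean of 13 or more, the 18 other genes spanned −0.19 to 0.61 in 2DG with CC and the 41 ribosomal protein genes −0.22 to 0.17. In both of these sets 0 genes reached 2-fold.

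The hybridization controls, which are added after labelling in known steps of amount, showed the same dependence on level. In 2DG with CC against 2DG, the dimmest, bioB (means of 7.04 to 7.61), was higher by 0.81, bioC (8.33 to 9.10) by 0.58, bioD (9.69 to 11.65) by 0.32 and cre (12.39 to 13.29) by 0.11. With VST the 4 controls were higher by 0.49, 0.36, 0.22 and 0.05, and with Phen by 0.54, 0.41, 0.25 and 0.05. At the level of most ribosomal protein probe sets the array thus returned a small part of the difference it returned for dim controls. How much of the narrow spread of the ribosomal protein genes comes from this was not tested.

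**Figure D3:**
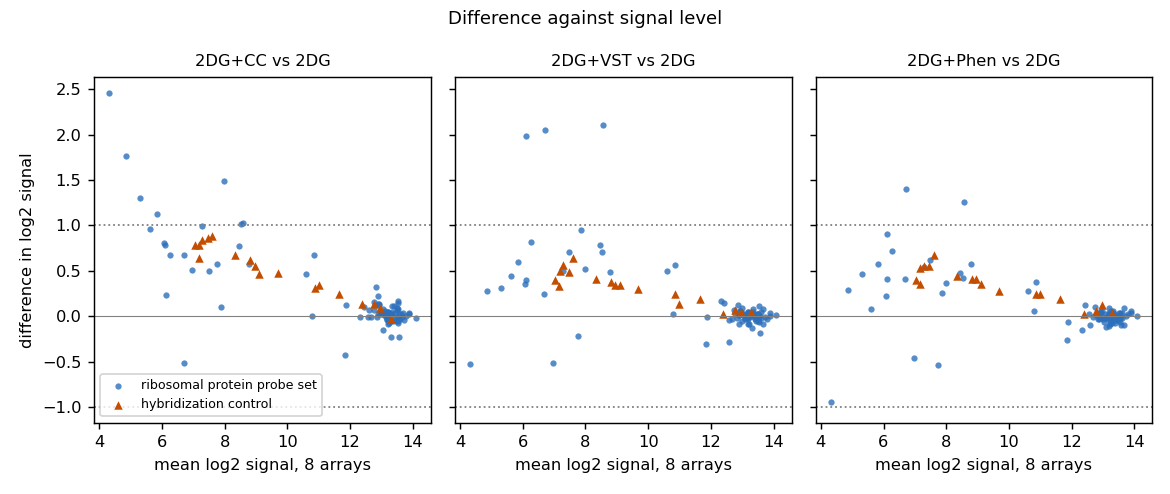
Difference in log2 signal (y axis) against the mean log2 signal over the 8 arrays (x axis) for the 94 expressed ribosomal protein probe sets (circles) and the 18 hybridization controls (triangles), in each of the 3 combinations against 2DG alone, with the 2-fold limits dotted. Above a mean of 13 the ribosomal protein probe sets lie between −0.23 and 0.17, and the dim ones lie mostly above 0 with the dim controls.

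Dim probe sets of the same genes gave another picture from the bright ones. To keep the combinations out of the choice, dim probe sets were taken by a mean from 6 to 10 over the 5 other arrays, a range set after seeing the data, which gave 13 probe sets of 10 ribosomal protein genes. Their median was 0.67 in 2DG with CC against 2DG (12 of 13 above 0), 0.71 with VST (11 of 13) and 0.48 with Phen (11 of 13). All 11233 probe sets chosen in the same way had medians of −0.24, −0.19 and −0.28, with 39.8%, 40.3% and 35.9% above 0. Most of the 13 were thus higher in the combinations, and most probe sets of like level were lower. The bioB control differed by 0.81, 0.49 and 0.54 and the poly-A controls by 0.87, 0.50 and 0.32 in the same comparisons, and their part in the dim values was not tested. Against control the 13 had medians of −0.07 in 2DG, 0.00 with CC, 0.04 with VST and 0.35 with Phen.

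RPL37, a zinc-finger protein of the large subunit, differed most between its probe sets. On its bright probe set, 200092_s_at, it had 12.93 on the control array, 13.05 with CC, 13.13 with VST, 13.16 with Phen, 13.17 in 2DG, and 13.23, 13.18 and 13.16 in 2DG with CC, VST and Phen. On 224767_at it had 6.84, 9.54, 7.86, 7.59 and 7.59 on the first 5 of these, and 8.16, 7.37 and 7.05 on the others. On 224763_at it had 6.13, 8.96, 7.15, 7.11, 6.72, 7.23, 6.20 and 6.26 in the same order. Both dim probe sets thus peaked with CC alone, where they were higher than control by 2.71 and 2.83, while the bright one differed by 0.12.

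On the array with CC alone the poly-A controls were 0.10 and the bioB control 0.20 above the control array, and their part in these values was not tested. With VST the dim probe sets of RPL37 were higher by 1.02 each and with Phen by 0.75 and 0.98. A further probe set, 224766_at, had 4.14 in 2DG and 6.60 in 2DG with CC, a difference of 2.46, and passed the limit for expression on that array alone. Which part of the transcript each probe set reads was not analysed here.

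**Figure D4:**
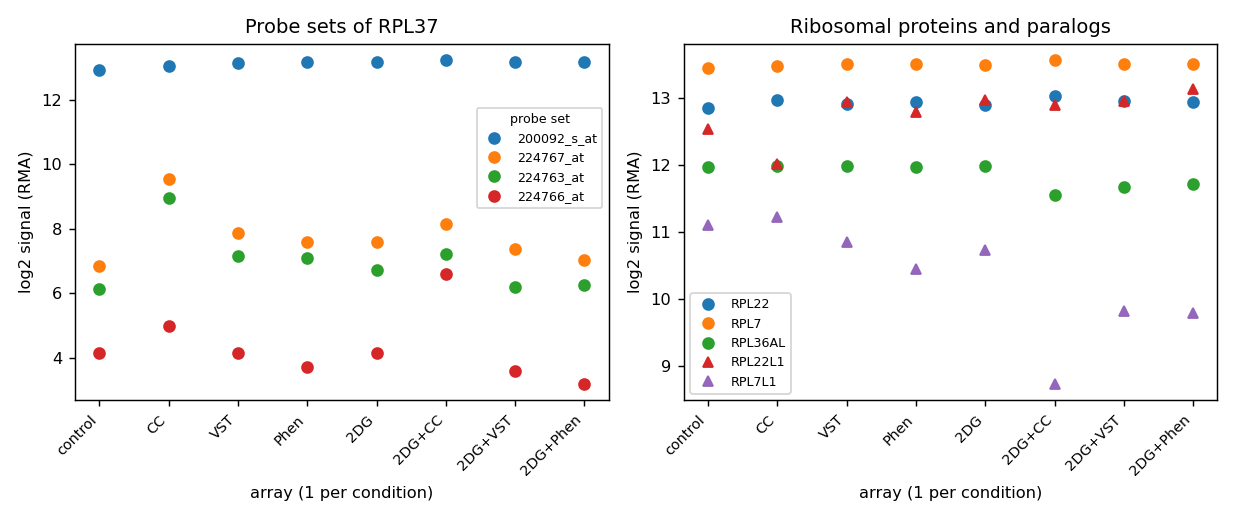
Log2 signal (y axis) on the 8 arrays (x axis) of the 4 expressed probe sets of RPL37 (left) and of 3 ribosomal protein genes (circles) and 2 paralogs outside the group (triangles; right), 1 point an array. Left, 224767_at and 224763_at are highest with CC alone (9.54 and 8.96) while 200092_s_at stays between 12.93 and 13.23. Right, RPL36AL and RPL7L1 are lowest on the 3 arrays with 2DG and a compound.

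Dim probe sets of RPL31, RPS24 and RPL37A were highest in 2DG with VST. RPL31 on 221593_s_at had 7.78 in 2DG and 8.81, 9.89 and 9.04 in 2DG with CC, VST and Phen, so the differences were 1.03, 2.11 and 1.26. RPS24 on 1555878_at had 6.28 in 2DG and 5.77, 8.33 and 7.68 (−0.51, 2.05 and 1.41). RPL37A on 213459_at had 5.80 in 2DG and 6.03, 7.79 and 6.71 (0.23, 1.99 and 0.91). The RPL37A probe set was below 6 on the control, CC, VST and 2DG arrays and passed the limit through the others. The poly-A controls were higher by 0.50 in 2DG with VST, and the bright probe sets on which these genes were read differed from 2DG by 0.04, −0.02 and 0.01 in that comparison.

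In 2DG with CC, other dim probe sets were higher by 1 or more. RPS15 on 1563014_at had 4.54 in 2DG and 6.31 with CC (1.77), and RPS15A on 235309_at had 7.43 and 8.92 (1.48). RPS28 on 208902_s_at was higher by 1.30, RPS10 on 214001_x_at by 1.14 and RPL35A on 238026_at by 1.02. The RPS15, RPS28 and RPS10 probe sets were below 6 on the 2DG array and passed the limit through the arrays where they were high. Counted by probe set, 7 of 94 were at least 2-fold higher in 2DG with CC, 3 with VST and 2 with Phen, all of them dim, and 0 were lower. Over all expressed probe sets, 11.0%, 6.95% and 7.35% were at least 2-fold higher in these comparisons and 23.0%, 18.3% and 20.2% lower, so the counts of higher ones are not above these shares. The shares are not matched for level. In 2DG with CC, 5 of the 17 with a mean below 8 reached 2-fold, where 40.6% of all probe sets at that level did so in either direction. From 8 to 10 it was 2 of 4, against 24.9%.

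RPL22L1 and RPL7L1, which fall outside the naming rule, spanned more between arrays than RPL22 and RPL7. RPL22L1, a paralog of RPL22, had 12.54 on the control array, 12.02 with CC, 12.93 with VST, 12.79 with Phen and 12.97 in 2DG, and 12.89, 12.95 and 13.13 in 2DG with CC, VST and Phen. It was lowest with CC alone (−0.52 from control) and higher in 2DG (0.43). RPL22 on its brightest probe set stayed between 12.85 and 13.02. With CC present, 2DG thus went with a difference of 0.87 in RPL22L1 (12.89 against 12.02).

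RPL7L1, a paralog of RPL7, had 11.10 on the control array, 11.22 with CC, 10.85 with VST, 10.45 with Phen and 10.74 in 2DG, and 8.74, 9.83 and 9.80 in 2DG with CC, VST and Phen. The combinations were thus below all the other arrays, by −2.00, −0.91 and −0.94 from 2DG. RPL7 stayed between 13.45 and 13.56. RPL26L1 had 10.85 on the control array, 11.35 with CC and 10.52 in 2DG (0.50 and −0.32). RPS27 stayed between 13.15 and 13.35 where its paralog RPS27L went from 12.08 to 12.52, and RPL39 between 13.22 and 13.42. FAU, which encodes the small subunit protein S30 as a fusion with a ubiquitin-like protein, stayed between 12.47 and 12.69. RPL7L1 was dimmer than RPL7, so its wider span stands beside the dependence on level described above.

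Other mRNAs known to carry a TOP tract were also slightly higher in 2DG on the deposited scale. None of them reached 2-fold in 2DG against control, where 3.06% of all expressed genes were higher and 1.90% lower. Of 25 listed, 21 were expressed, mostly translation factors, and 13 of the 14 with a RefSeq start had a TOP start. Their median difference was 0.19 in 2DG (21 of 21 above 0), 0.03 with CC, 0.19 with VST and 0.16 with Phen, and −0.07, −0.03 and −0.04 in 2DG with CC, VST and Phen. Scaling on the poly-A controls turned the median in 2DG to −0.16, that with CC to −0.07 and that with Phen to −0.12. EIF3H, a subunit of initiation factor 3, had 11.55 on the control array and 12.07 in 2DG (0.51), and EEF2, the translocase of elongation, had 12.84 and 13.26 (0.42). EIF4B (−0.36 in 2DG with CC) and EIF3D (−0.55 with VST and −0.53 with Phen in 2DG) were lowest in the combinations.

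HNRNPA1, a splicing factor, stood out in this list. It had 10.24 on the control array and 11.02 in 2DG (0.78), and 12.77, 11.84 and 12.81 in 2DG with CC, VST and Phen, so it was higher again by 1.75, 0.82 and 1.79. It was the only gene of the 21 at least 2-fold higher than in 2DG, with CC and with Phen. That is 4.8% of the list in each, against 8.33% and 4.84% of all expressed genes, so not above these shares. None was 2-fold lower, where 25.4%, 20.0% and 21.8% of all expressed genes were with CC, VST and Phen. The shares are not matched for level.

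Host genes of small nucleolar RNAs with a TOP start encode no protein of the ribosome. Of 10 listed, ZFAS1 and EPB41L4A-AS1 were expressed on a probe set of their own. ZFAS1 had 11.78 on the control array, 13.10 with CC, 12.86 with VST, 12.46 with Phen and 13.02 in 2DG, and 13.03, 12.56 and 13.02 in the combinations. EPB41L4A-AS1 had 9.05 on the control array, 10.38, 10.47 and 10.38 with the compounds, 10.47 in 2DG, and 10.27, 10.73 and 11.28 in the combinations. Both were lowest on the control array, with differences of 1.24 and 1.42 in 2DG, which is more than any ribosomal protein gene showed.

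The ribosomal proteins of mitochondria form a separate ribosome, and their genes spread more widely than the cytosolic ones. The 76 expressed genes had a median of −0.19 in 2DG with 55 of 76 below 0 (0.01 over all expressed genes). With CC, VST and Phen alone the median was 0.01, −0.21 and −0.23, with 38, 60 and 60 genes below 0. Over all expressed genes these medians were 0.04, −0.02 and −0.03. In 2DG with CC against 2DG the median was −0.29, where 10 were lower by 2-fold or more and 1 higher (13.2% and 1.3%, against 25.4% and 8.33% of all expressed genes). With VST and Phen in 2DG the medians were 0.21 and 0.06, with 3 genes lower and 2 higher by 2-fold in each (3.9% and 2.6%), which is also under the shares over all genes. MRPL49 (−0.76) and MRPL13 (−0.58) were lowest in 2DG. MRPL17 had 8.76 in 2DG and 6.77 with CC (−2.00), and MRPL50 had 8.46 and 6.56 (−1.90). With VST, MRPS18C was lower by 1.81 and MRPS30 higher by 1.35, and with Phen MRPL28 was lower by 1.56 and MRPL54 higher by 1.51. Their probe sets are dimmer than those of the cytosolic group, and 5 of 68 with a RefSeq start (7.4%) had a TOP start.

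Factors that assemble ribosomes had a wider range than the ribosomal proteins, and their median was lowest with Phen. Of 35 listed, 29 were expressed, with medians of −0.05 in 2DG, 0.01 with CC, −0.03 with VST and −0.48 with Phen, where 26 of 29 were below 0. In 2DG with CC the median was 0.12, with 5 at least 2-fold higher and 4 lower (17.2% and 13.8%, against 8.33% and 25.4% of all expressed genes). Against Phen alone, 2DG with Phen gave a median of 0.62. RRS1, needed for the large subunit, had 9.95 in 2DG and 7.29 with CC (−2.66), and UBTF, a factor for transcription of the rRNA genes, had 4.86, 5.44 and 4.97 in the combinations, which is below its level in 2DG in each (−2.13, −1.56 and −2.02). MYC, which drives transcription of many such genes, had 8.89 in 2DG and 12.33 and 12.32 with VST and Phen (3.45 and 3.44). NOB1, the nuclease that trims the 18S rRNA, was higher by 0.90 in 2DG, and RRP12 by 0.46.

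Of 7 proteins that escort single ribosomal proteins, TSR2, the partner of RPS26, had 7.46 on the control array and 6.82 in 2DG (−0.64), and was higher than in 2DG by 0.95, 1.19 and 0.89 in the combinations. PDCD2L was lower by 0.46 in 2DG. GRWD1, a partner of RPL3, had 7.59 in 2DG and 6.05, 8.26 and 8.61 in 2DG with CC, VST and Phen, so it was lower with CC (−1.54) and higher with VST and Phen (0.67 and 1.02).

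Of 9 genes listed for the control of TOP mRNA translation, 7 were expressed, with medians of −0.39, −0.67 and −0.37 in 2DG with CC, VST and Phen against 2DG. Below 0 were 5, 5 and 7 of the 7, where 60.3%, 60.4% and 64.0% of all expressed genes were below 0, so most genes of any kind had this direction. LARP1, which binds the TOP tract, had 10.43 in 2DG and 9.73, 8.98 and 8.83 (−0.71, −1.45 and −1.60). RPTOR, the subunit that defines mTORC1, had 6.15 in 2DG and 4.32 with CC (−1.82), and LARP4 had 8.37 and 9.79 (1.42). EIF4EBP2, a repressor of the cap-binding protein, was lower by 0.88 with VST and 1.29 with Phen. EIF4E, the cap-binding protein, had 9.72 on the control array and 8.74 in 2DG (−0.98), and LARP4 was lower by 0.82. Values below the limit of 6 are near background.

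**Figure D5:**
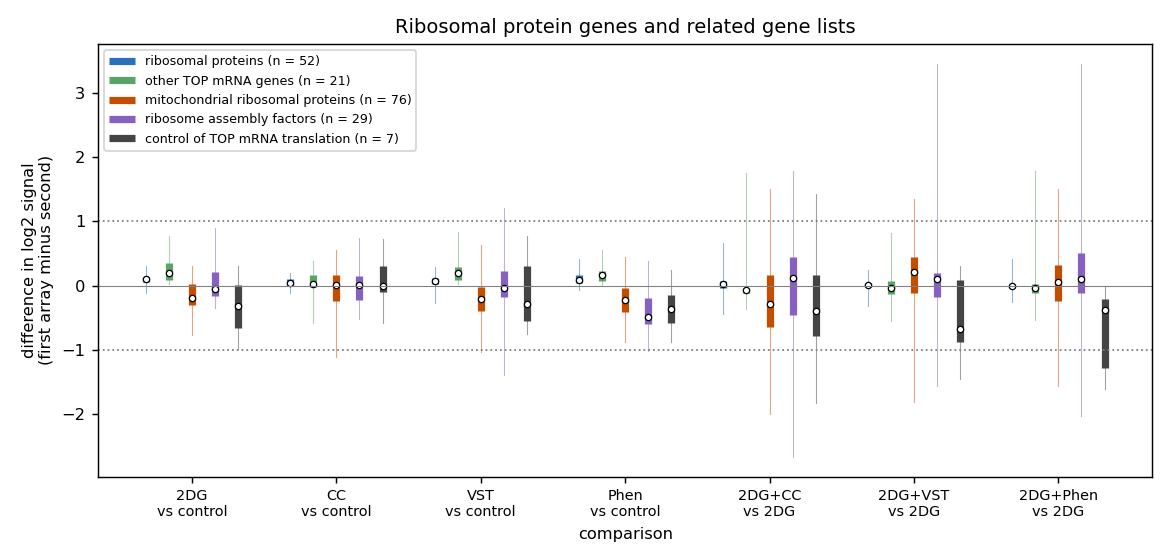
Difference in log2 signal (y axis) in the 7 comparisons (x axis) for the ribosomal protein genes and 4 related lists, with the median (open circle), the middle 50% of genes (thick bar) and the full range (thin line), and the 2-fold limits dotted. The bars of the ribosomal protein genes lie within −0.03 and 0.17, and the lists of dimmer genes reach past 2-fold in the combinations.

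The cells were checked against markers. Of 6 mesenchymal genes, 5 were expressed, with VIM, the intermediate filament of mesenchymal cells, at 13.24 to 13.65, and COL5A1 was not (2.47 to 2.97). The 3 epithelial and 2 blood cell markers lay between 1.83 and 3.20 on all arrays, near background.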

How the data were processed

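Gene expression was read on 8 arrays of HT1080 cells, 1 for each condition, labelled from 100 ng of total RNA. The deposited file holds log2 signals from RMA, run by the authors per the labels, which subtracts background, sets the arrays to a common distribution and combines the probes of a set. The program used is not given in the sources used here, and differences were taken on these values directly.

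The 62 control probe sets were left out and read on their own (24 poly-A and 18 hybridization controls among them). Symbols came from the platform annotation, with 41097 probe sets of 1 symbol, 1801 of several and 11777 of none. All 57 symbols of the group were unchanged in RefSeq. A gene was read on its expressed probe set with the highest mean. Called means at least 2-fold. With 1 array a condition there was no test.

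Genes were named by a rule: the 3 ribosomal protein genes at either end of each comparison, a fixed set of well-known members and paralogs, the 2 genes of each related list farthest from 0, and genes whose probe sets differed by over 1. EEF2 was named after its values were seen. The members and lists were chosen with earlier results of these data known. The calculation was tested on simulated data.

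Alternatives were folds of 1.5 and 1.2, limits of 5 and 7, centring, poly-A scaling, other choices of probe set and related genes added. Calculations used Python 3.11.15 with pandas 2.3.3, numpy 2.4.6 and matplotlib 3.10.9.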

Additional observations from a re-analysis of the deposited data

Results flagged for a closer look

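Some signals lie outside the comparisons of ribosomal protein genes. Among the control probe sets for ribosomal RNA, the 3' set for 18S rRNA was 1.01 (log2) above the control array in 2DG with CC (12.62 against 11.61). The 5' set for 28S rRNA was higher by 1.23 in 2DG with CC. The middle set for 28S rRNA was higher by 1.14 with CC alone, by 2.03 in 2DG with CC and by 1.06 in 2DG with VST. The 5' and middle sets for 18S rRNA had 12.67 and 12.38 in 2DG with CC, against 12.75 and 12.25 on the control array. In 2DG with CC the spiked controls were also above the control array, poly-A by 1.22, bioB by 1.01, bioD by 0.50 and cre by 0.19. Their part in the rRNA values was not tested.

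Probe sets that carry several symbols, with a ribosomal protein gene among them, name no gene here. Of 56 expressed, those that differed by over 2 in a comparison were 1565759_at in 2DG with CC against 2DG (2.22), 213223_at with CC against control (2.07), and 214291_at (2.47) and 229562_at (2.36) in 2DG with VST against 2DG. In the other direction, 223707_at differed from control by −2.30 with VST and −2.24 with Phen.

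On the dim probe sets 224763_at and 224767_at of RPL37 the effect of 2DG went in opposite directions with and without a compound, and the difference was not tested. On 224763_at the 2DG effect was 0.59 without a compound, and −1.73 under CC, −0.95 under VST and −0.85 under Phen. On 224767_at it was 0.75 without a compound, −1.38 under CC, −0.49 under VST and −0.54 under Phen. The third dim probe set, 224766_at, gave −0.02 without a compound, 1.60 under CC, −0.55 under VST and −0.51 under Phen, and so did not follow them.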

How the results depend on the processing

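Of 301 values under an alternative, 243 stayed within 0.1 (medians) or within 1.5 times (counts), and 58 did not. Of 91 medians among them, 15 turned in sign, 7 of these by a change of less than 0.1. Poly-A scaling gave medians of −0.25 in 2DG, −0.06 with CC and −0.19 with Phen, and −0.85, −0.48 and −0.33 in 2DG with CC, VST and Phen, with 3 genes lower in 2DG with CC. These controls are dimmer than most of the group (means of 5.00 to 9.90), and their shift was not tested at the level of the group. Centring gave 0.23, 0.24 and 0.28 in the combinations. At 1.2-fold, 2 genes were higher in 2DG, 2 with VST (1 lower), 2 with Phen, 2 in 2DG with CC (1 lower) and 1 in 2DG with Phen, and 2 were lower in 2DG with VST. At 1.5-fold, 1 was higher in 2DG with CC. Without probe sets that may match several transcripts (23 genes), 1 gene was higher with CC, VST and Phen each, and 3, 2 and 1 in the combinations, with a median of 0.14 in 2DG with CC. With the median over the probe sets of a gene, 1 was higher with CC and VST each, and 1, 3 and 1 in the combinations. By probe set, 2, 2 and 1 were higher with CC, VST and Phen, and 7, 3 and 2 in the combinations. With related genes added, 1 was higher and 1 lower in 2DG with CC. The last choices were made after seeing the data. The 21 probe sets with a mean under 10 had medians of −0.02 in 2DG, 0.28 with Phen, and 0.78, 0.50 and 0.42 in the combinations, with 2, 2 and 1 higher with the compounds alone and 7, 3 and 2 in the combinations. Some passed the limit only on arrays with 2DG and a compound, namely 219138_at (RPL14), 224766_at (RPL37), 1563014_at (RPS15) and 208902_s_at (RPS28). The mean also takes in those arrays. The choice thus favours higher values in the combinations, and no conclusion is drawn from this set. Probe sets with several symbols gave 2 higher with CC, 1 lower with VST and with Phen each, and in the combinations 4, 3 and 3 higher with 1 lower with VST and 2 with Phen. The cause of these differences was not tested. No paired analysis was possible because each condition has 1 array, and no array could be left out. Identity between paralog proteins was not run.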
